A study of Mus musculus with 6 samples.

Results

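Cathepsins are proteases of the endosomes and lysosomes, the acidic compartments in which taken-up material is broken down. Here 10 cathepsin genes (Ctsb, Ctsc, Ctsd, Ctse, Ctsf, Ctsh, Ctsk, Ctsl, Ctss and Ctsz) were followed in splenic CD4+ dendritic cells (DC) that had or lacked the transcription factor Runx3. They were found as the probe sets that the platform annotation assigns to one of these symbols alone. Each symbol had 1 such probe set, so the family was read by 10 of the 35399 probe sets on the arrays. The platform annotation and RefSeq gave the same symbol for each gene by its Entrez number.

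The study asked which genes respond to Runx3 in these cells. It used 6 male mice aged 6 weeks, 3 with the genotype Runx3 +/+ (WT) and 3 with Runx3 -/-, as 3 littermate pairs, with 1 array per mouse. Cells were enriched on magnetic beads and sorted from spleen as CD11c+ MHCII+ cells by CD4 and CD8, and the labels name Esam in the sort without giving its gate. The Runx3-/- allele was carried in the germline, so Runx3 was lost in all cells of these mice and not in DC alone. A strain is not given in the labels. Values are log2 intensities per probe set, where a difference of 1 is a doubling, and the methods of the study set 6.5 as background. Because probe sets differ in how brightly they report, a gene was compared only with itself between arrays, and the level of one cathepsin was not set against that of another.

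Most cathepsins, among them Ctsb, Ctsc, Ctsf, Ctsh, Ctsk, Ctsl, Ctss and Ctsz, cut proteins with a cysteine in the active site, whereas Ctsd and Ctse use a pair of aspartates. They are made as inactive precursors, are sorted to the lysosome, many of them by mannose 6-phosphate tags, and become active when their propeptide is cut away in acid. In antigen-presenting cells they degrade proteins into peptides and trim the invariant chain from MHC class II molecules. Ctss does this in DC and B cells, while Ctsl is best known for it in the epithelium of the thymic cortex. Cystatins and some serpins restrain cathepsins, and the factors of the TFEB family switch on many lysosomal genes through sites built on the E-box CACGTG.

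Start-site sequence from RefSeq (build GRCm38.p6, 250 bases before to 50 bases after a start) was at hand for 7 of the 10 genes, Ctsc, Ctsd, Ctsf, Ctsk, Ctsl, Ctss and Ctsz. It was not used for Ctsb, Ctse and Ctsh. The E-box CACGTG, which reads the same on both strands, was found in 3 of the 7 genes. Of all 32851 start-site windows, counted per window and not per gene, 7.15% held it. The windows of 30 bases around it are shown because Ctsl and Ctsd had the largest positive differences between genotypes. They are written 5′ to 3′ on the strand of the gene, with the E-box in capitals.

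Ctsl: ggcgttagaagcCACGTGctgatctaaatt

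Ctsd: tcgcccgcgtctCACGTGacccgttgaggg

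Ctsf: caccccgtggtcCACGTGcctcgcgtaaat

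The first lies at chr13:64370739-64370768 (minus strand), 236 bases before the start used, and inside the annotated gene, which reaches past that start. The second lies at chr7:142387908-142387937 (minus strand), 98 bases before the start. The third lies at chr19:4855074-4855103 (plus strand), 79 bases before the start. The RUNX elements TGTGGT and TGCGGT were searched on both strands. Start-site windows of 0 of the 7 genes held them, where 16.8% and 6.45% of all windows do. No RUNX element overlapped an E-box. These matches describe letters in a short window. The study mapped Runx3 binding in splenic CD4+ DC by chromatin immunoprecipitation with sequencing, and those data were not used here. None of the 10 genes lies on the chromosome of Runx3.

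The targeted gene followed the labels. Runx3 (probe set 10509030) stood at 11.24, 11.22 and 11.11 in WT 1, 2 and 3 and at 9.16, 9.30 and 9.16 in Runx3-/- 1, 2 and 3, a difference of -1.98 on the log2 scale (SE 0.08, limma, adjusted p = 0.0027). The exact permutation p of 0.1 is the minimum for groups of 3. In a fit blocked by litter its adjusted p was 0.061, and without WT 1 it was 0.053. All 10 markers of CD4+ DC lay above background in all 6 arrays. Their log2 changes ran from -0.62 (Irf4) to 0.47 (Itgam), with 4 positive and 6 negative. By limma 1 of the 10, Irf4, passed an adjusted p of 0.05, as lower in Runx3-/- (adjusted p = 0.043), where 0.907% of all tested named genes fell. Markers of T cells and NK cells were below background in all arrays, for 4 of 4 measured genes each, as were 4 of 5 neutrophil markers. By contrast, 2 of 4 measured B cell markers and 5 of 7 CD8+ DC markers lay above background in all 6 arrays. The mean log2 change was 0.36 over the B cell markers and 0.13 over the CD8+ DC markers. In both lists the array means overlapped between genotypes. The CD8+ DC mean averages opposite signs. Of 6 tested genes 4 had positive and 2 negative changes, from -0.49 (Wdfy4) to 0.68 (Xcr1), none with an adjusted p of at most 0.05. A further probe set of Wdfy4 had a log2 change of -0.54 (limma, adjusted p = 0.043). Markers of red pulp macrophages had a mean log2 level of 8.55 to 9.04 in WT and 9.65 to 9.92 in Runx3-/- arrays, with Cd163 below background throughout. Those of monocytes ranged from 10.1 to 10.4 and from 10.8 to 10.9. Markers of plasmacytoid DC were at 7.64 to 7.77 in WT and at 7.89, 8.22 and 9.45 in Runx3-/- 1, 2 and 3. The part of these cells in any result given here was not tested, and in RNA of a sorted pool more cells of a type cannot be told apart from more RNA per cell.

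Of the 10 cathepsin genes, 8 were expressed and 2 were not. Ctsb, Ctsc, Ctsd, Ctse, Ctsh, Ctsl, Ctss and Ctsz exceeded background in all 6 arrays, so both genotypes carried them past the filter on low values. Ctsk, the collagen-degrading enzyme of osteoclasts, ranged from 5.18 to 5.34 over the 6 arrays. Ctsf, an endopeptidase for which a role in invariant chain processing in macrophages has been described, ranged from 5.32 to 5.61. Both were therefore below background in every array and were not tested.

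**Figure D1:**
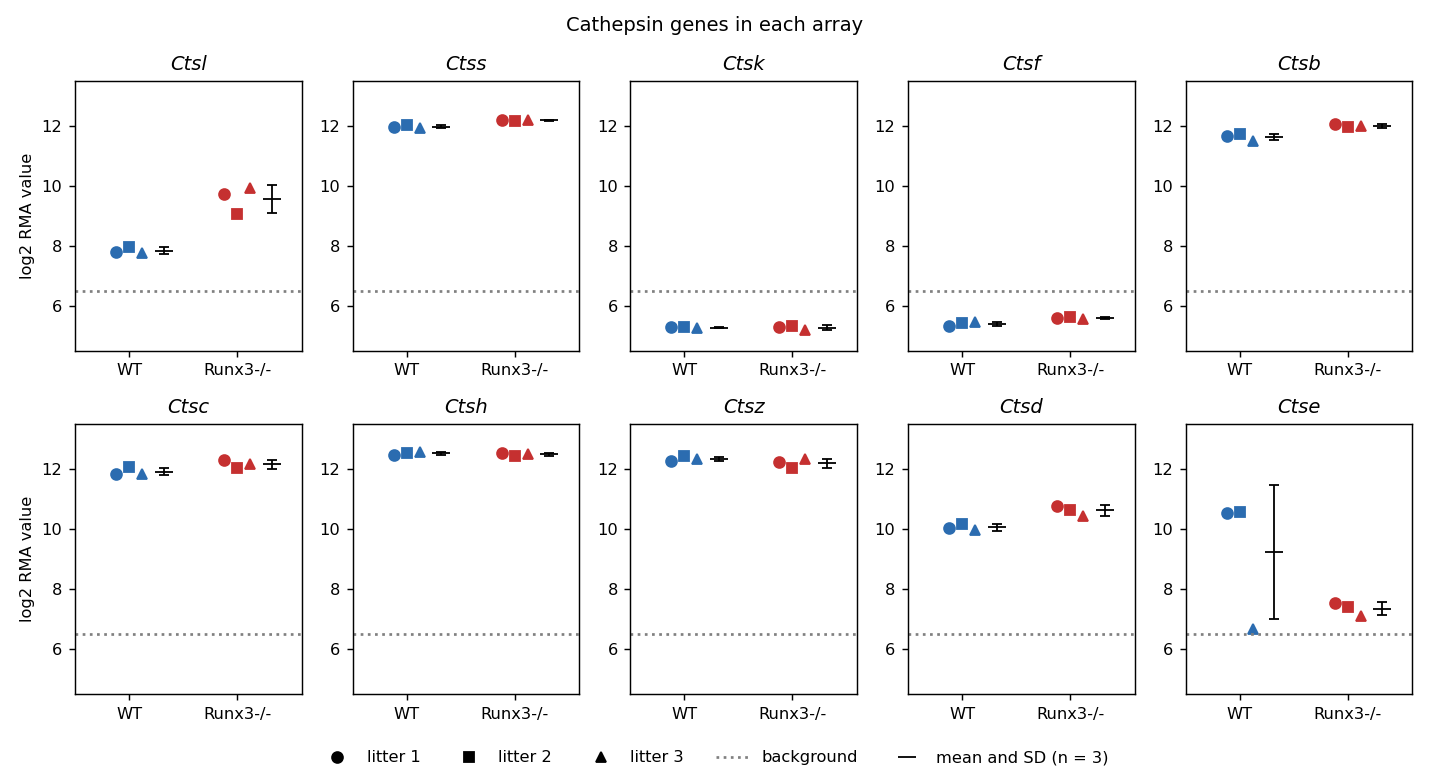
Log2 value (vertical axis) of the 10 cathepsin genes per array (blue for WT, red for Runx3-/-), with marker shape for the litter, genotype means with their SD (n = 3) in black and the background of 6.5 dotted. The Ctsl values do not overlap between genotypes (means 7.84 and 9.57), Ctsk and Ctsf stay below background, and Ctse is high in WT 1 and WT 2 but not in WT 3.

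Loss of Runx3 was accompanied by a rise of 1 cathepsin past the adjusted threshold, Ctsl. Of the 8 tested members 1 rose and 0 fell at an adjusted p of 0.05, while 1.36% of the 9922 tested named genes rose and 0.907% fell. The differences of the other 7 did not pass. At an unadjusted p of 0.05, 4 members were higher (Ctsl, Ctsd, Ctsb and Ctss) and 0 lower, against 7.59% higher and 11.8% lower among all tested named genes. The same 4 were those whose Runx3-/- values all lay above the WT values, where 9.86% of named genes did so. No member had all Runx3-/- values below the WT values, as 18.6% of named genes did. The median log2 change was 0.23 over the 8 members and 0.21 without Ctsl, beside -0.03 over all tested named genes. With 8 genes these counts describe the family and are no test of it.

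Ctsl (probe set 10410124), a cysteine endopeptidase of broad specificity, showed the change that passed. It stood at 7.79, 7.98 and 7.76 in WT 1, 2 and 3, a mean of 7.84 ± 0.12 (SD, n = 3). In Runx3-/- 1, 2 and 3 it stood at 9.72, 9.05 and 9.93, a mean of 9.57 ± 0.46 (SD, n = 3). The WT arrays were close together, every Runx3-/- array lay more than 1 log2 unit above the highest of them, and Runx3-/- 2 was the lowest of its group. The log2 change was 1.73 (SE 0.23, 95% interval 1.18 to 2.28, limma, adjusted p = 0.029), a rise of 3.31-fold with an interval of 2.26 to 4.85. Within litters 1, 2 and 3 the difference was 1.93, 1.08 and 2.17, positive in all 3. An exact permutation test gave p = 0.1, the smallest it could.

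The log2 change of Ctsl could move only where an array was left out or the values were rescaled, and there it lay between 1.55 and 1.99. The other alternatives alter only the variance or the adjustment, so its change of 1.73 was fixed in them. In 7 of all 14 alternatives adjusted p stayed at or under 0.05. Blocking by litter gave an adjusted p of 0.10. It was 0.15 without WT 1, 0.071 without WT 2, 0.10 without WT 3, 0.12 without Runx3-/- 1 and 0.079 without Runx3-/- 3, and 0.014 without Runx3-/- 2.

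Ctsd (probe set 10569319), the main aspartic protease of the lysosome, had the next largest positive difference without passing the adjusted threshold. Its values were 10.04, 10.16 and 9.96 in WT and 10.78, 10.65 and 10.44 in Runx3-/- 1, 2 and 3. All Runx3-/- arrays were thus above all WT arrays. The log2 change was 0.57 (SE 0.11, 95% interval 0.30 to 0.83, adjusted p = 0.074), and the littermate differences were 0.74, 0.49 and 0.48.

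Ctsb (probe set 10415844), which combines endopeptidase and exopeptidase activity, showed a smaller difference of the same sign. It was at 11.67, 11.72 and 11.51 in WT and at 12.06, 11.95 and 11.98 in Runx3-/- arrays. The groups did not overlap, and the log2 change was 0.36 (SE 0.08, 95% interval 0.16 to 0.56, adjusted p = 0.11), with littermate differences of 0.39, 0.23 and 0.47.

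Ctss (probe set 10494271), the endopeptidase that finishes invariant chain processing in DC, differed least among these 4. WT arrays were at 11.98, 12.02 and 11.94 and Runx3-/- arrays at 12.21, 12.17 and 12.20. The spread within each genotype was very small (SD 0.04 and 0.02), and the groups lay apart by little. The log2 change was 0.21 (SE 0.06, 95% interval 0.06 to 0.36, adjusted p = 0.19), so its fold lay within 1.04 and 1.29. For Ctsd and Ctsb the adjusted p fell to 0.028 and 0.043 in 1 of 14 alternatives, the fit of mean values per symbol, where 6.03% of 9863 genes were called.

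The exopeptidases other than Ctsb did not separate the genotypes. Ctsc, the dipeptidyl peptidase that activates granule proteases, was at 11.85, 12.07 and 11.84 in WT and at 12.32, 12.03 and 12.16 in Runx3-/- arrays. These groups overlapped because Runx3-/- 2 lay below WT 2, and the log2 change was 0.25 (95% interval -0.01 to 0.51, adjusted p = 0.34). Ctsh, an aminopeptidase, ranged from 12.48 to 12.58 in WT and from 12.45 to 12.56 in Runx3-/- DC. Its log2 change of -0.04 had an interval of -0.20 to 0.13, so at this precision a rise of more than 1.09-fold lay outside it, and the sign turned with median centring (0.005). Ctsz, a carboxypeptidase, was at 12.28, 12.43 and 12.33 in WT and at 12.23, 12.04 and 12.34 in Runx3-/- DC. Its log2 change was -0.14 (95% interval -0.38 to 0.10, adjusted p = 0.54), and Runx3-/- 2 was the lowest array.

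The rise of Ctsl was set against the change of each of the 7 other expressed members as a ratio within each array. It exceeded the change of Ctsd by 1.16, of Ctsb by 1.37, of Ctsc by 1.48 and of Ctss by 1.52 on the log2 scale. The difference was 1.76 for Ctsh, 1.87 for Ctsz and 3.63 for Ctse. In all 7 comparisons the Runx3-/- ratios lay above the WT ratios. Each exact permutation test gave p = 0.1, also after Benjamini-Hochberg adjustment over the 7, and this was the smallest value possible. Ctsl was picked for this comparison by its change in these same arrays. The ratios therefore describe the size of its rise beside the others and are no further test of it. For Ctse the ratios also varied widely among WT arrays (SD 2.17).

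**Figure D2:**
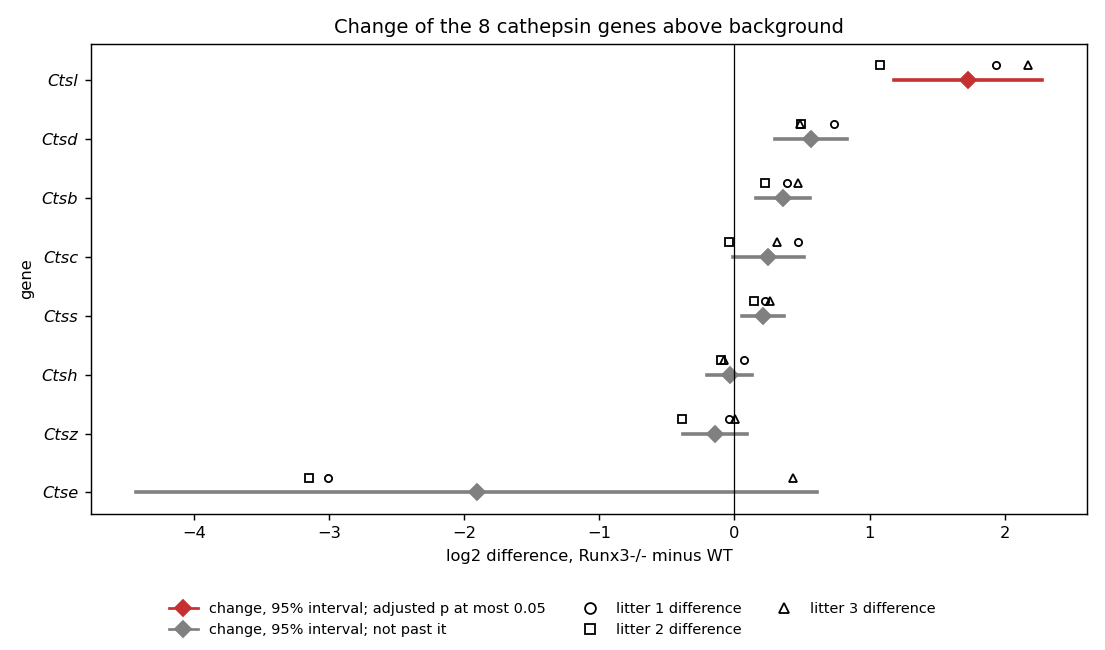
Log2 difference of Runx3-/- minus WT (horizontal axis) for the 8 cathepsin genes above background (vertical axis), as the limma change with its 95% interval (diamond and bar, red where adjusted p was at most 0.05) and as the difference within each litter (open symbols). Only the Ctsl change of 1.73 is red, and the Ctse differences of litters 1 and 2 (-3.01 and -3.15) lie far from that of litter 3 (0.44).

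Ctse (probe set 10349648), an aspartic protease of endosomes found in immune cells and the stomach, behaved unlike the rest, because a WT array stood apart. WT 1 and WT 2 were at 10.53 and 10.56, but WT 3 was at 6.66, close to background. The Runx3-/- arrays were at 7.52, 7.41 and 7.10, below WT 1 and WT 2 and above WT 3. The SD in WT was 2.24 and that in Runx3-/- DC 0.22. WT 3 differed from the mean of the other WT arrays by -3.88, a value 14.7-fold lower, and among 9922 tested named genes Ctse itself was the only one with so low a value of this difference.

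Because of WT 3, the Ctse change was not settled. The log2 change was -1.91 (SE 1.04, 95% interval -4.43 to 0.61, limma, adjusted p = 0.44). Within litters 1 and 2 the Runx3-/- mouse was lower, by differences of -3.01 and -3.15, and within litter 3 it was higher by 0.44. Without WT 3 the log2 change was -3.20 (adjusted p = 0.013). Without any other single array it lay between -2.00 and -1.25, with adjusted p from 0.47 to 0.77. From 1 such array, an unusual WT mouse or array cannot be told apart from a genotype difference that varies by litter.

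The array medians ran from 6.57 to 6.65 on the log2 scale. Of 19149 tested probe sets, 13 lay at least 2 log2 units below the mean of the other WT arrays in WT 3, beside 3 in WT 1 and 29 in WT 2, and 29 lay as far above it in WT 3, beside 4 in WT 1 and 1 in WT 2. WT 3 thus had the most high outlying probe sets of the WT arrays. It also had the lowest mean of the red pulp macrophage markers, 8.55 beside 9.04 in WT 1 and 9.01 in WT 2, and the part of this in the Ctse value was not tested. The 5 tested named genes on each side of Ctse in RefSeq gene order (GRCm38.p6) did not share its pattern. In these 10 genes WT 3 differed from the mean of WT 1 and WT 2 by -0.25 (Slc41a1) to 0.32 (Rab7b).

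The genes nearest to a member in pattern were found by the root mean square difference between their 6 log2 values, each centred on the gene's own mean. For Ctsl they were Pparg (0.15), a lipid-sensing nuclear receptor, Tarm1 (0.17), a receptor of myeloid cells, P2ry14 (0.20) and P2ry13 (0.20), receptors for extracellular nucleotides, and Irf8 (0.23), a regulator of monocyte and CD8+ DC development. The measure uses all 6 values, so it also chose these genes for a genotype difference like that of Ctsl and for a low Runx3-/- 2, and neither is a finding about them. Their means differed between genotypes by 2.51-fold (Irf8) to 3.95-fold (P2ry14). Pparg for example was at 7.43, 7.70 and 7.56 in WT and at 9.19, 8.71 and 9.30 in Runx3-/- 1, 2 and 3.

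For Ctse the same measure was applied after its values had been seen. The nearest genes were less close, with differences of 0.82 for Olfr432 and 0.99 for Olfr433, of the olfactory receptor family, then 1.12 for Mir142, 1.16 for the calcium channel subunit Cacna1e and 1.17 for the stress-response gene Gadd45g. Olfr432 was at 9.98, 10.15 and 7.93 in WT and at 8.58, 7.72 and 8.67 in Runx3-/- arrays, so it also was low in WT 3. Olfr433 was at 9.74, 9.89 and 8.28 in WT and at 8.64, 8.03 and 8.73 in Runx3-/- arrays. Both lie on the chromosome of Ctse but are not among its neighbours. In Cacna1e and Gadd45g the WT 3 values were the lowest of WT but above all Runx3-/- values. Mir142 and Gadd45g were below background in all Runx3-/- arrays.

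**Figure D3:**
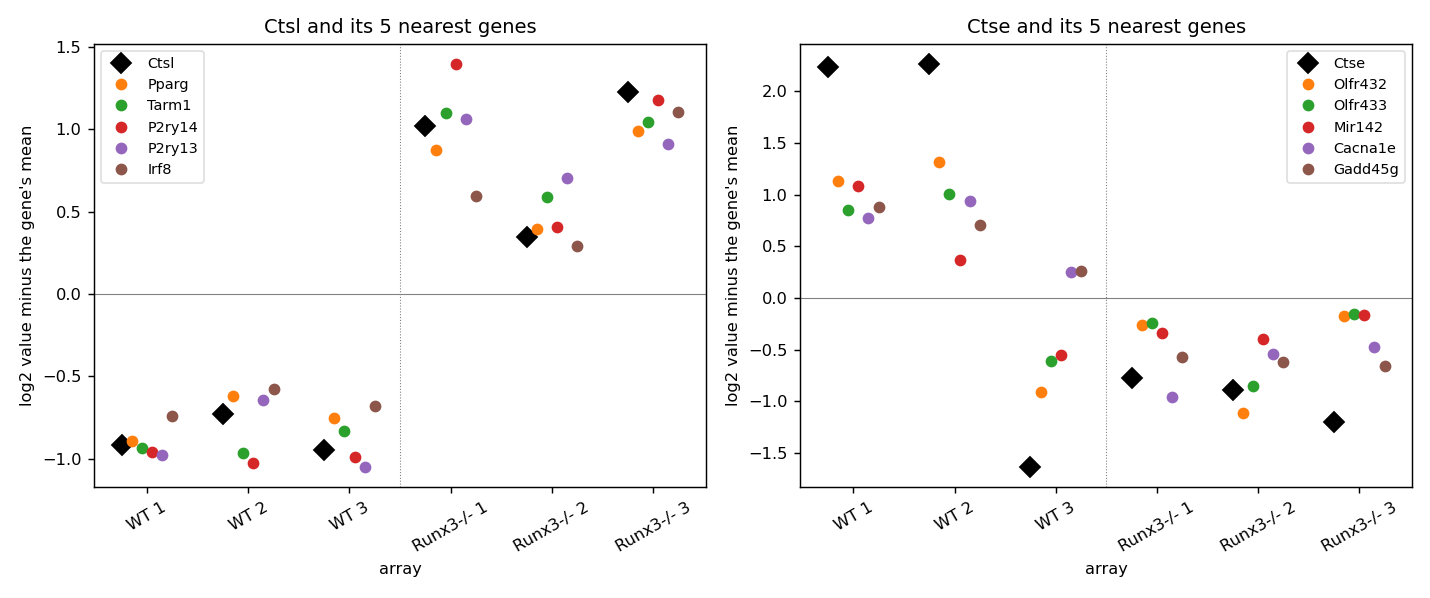
Log2 value minus the gene's own mean over the 6 arrays (vertical axis) by array (horizontal axis) for Ctsl (left, black diamonds) and Ctse (right, black diamonds) with the 5 named genes nearest to each (coloured circles). The Ctsl group is low in all WT arrays and high in all Runx3-/- arrays, whereas Ctse and Olfr432 are high in WT 1 and WT 2 only.

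Other proteases of the lysosome gave a single further call. Of 7 listed and tested, 1 rose and 0 fell, where 1.36% of all tested named genes rose and 0.907% fell. Lgmn, the asparaginyl endopeptidase that cuts antigens and the precursors of several cathepsins, rose from 10.78, 10.88 and 10.66 in WT to 11.74, 11.59 and 11.39 in Runx3-/- arrays. The groups did not overlap. The log2 change was 0.80 (SE 0.11, limma, adjusted p = 0.033), and 5 of 13 alternatives kept the call. It was lost in the fit blocked by litter (adjusted p = 0.081) and when any single array was left out (0.062 to 0.16). Cpq, a carboxypeptidase, had a log2 change of 0.61 (adjusted p = 0.071), Dpp7, a dipeptidyl peptidase, of 0.25 (adjusted p = 0.24) and Napsa, an aspartic protease related to Ctsd, of -0.22 (adjusted p = 0.19), none passing. The list's median was 0.22.

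Other genes named cathepsin contributed little. Of 13 listed, 11 had a probe set of their own and 2 were above background. Ctsa, a carboxypeptidase that also protects lysosomal glycosidases, had a log2 change of -0.03 and Ctso of -0.14. By limma 0 of these 2 passed, and 0 had an unadjusted p of at most 0.05. The methods' analysis of variance had 1 at that p, beside 2816 of 19149 tested probe sets. The other 9, among them the granule protease Ctsg, the lymphocyte protease Ctsw and the placental genes Ctsj, Ctsq and Ctsr, lay below background in all arrays.

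Inhibitors showed no call. Of 16 listed cystatins and serpins, 13 had their own probe set and 8 were tested, with a median of 0.13. By limma 0 passed, and 3 were higher and 1 lower at an unadjusted p of 0.05, beside 7.59% higher and 11.8% lower among all tested named genes. The methods' analysis of variance had 1 in all at that p, beside 2816 of 19149 tested probe sets. Serpinb6b had a log2 change of -0.45 (adjusted p = 0.16), Serpinb1a of 0.60 (adjusted p = 0.21) and Serpinb6a of 0.26 (adjusted p = 0.28). Cst3, the secreted inhibitor cystatin C, named here after its value was seen, stood at 12.96 in both genotypes with a log2 change of -0.001 (SE 0.07). The other tested cystatins, also named after their values were seen, did not all stay level. Cstb had a log2 change of 0.40 (limma, adjusted p = 0.30), with all Runx3-/- values above the WT values, as in 9.86% of named genes. Stfa2, above background in 1 array, had 0.27 (adjusted p = 0.40) and Cst7 had -0.01 (adjusted p = 0.99).

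Genes that deliver lysosomal enzymes or switch on their genes had a median log2 change of -0.07, with 16 of 18 listed genes tested. By limma 0 passed, with 1 higher and 3 lower at an unadjusted p of 0.05, beside 7.59% and 11.8% of all tested named genes. The methods' analysis of variance had 3 in all at that p, beside 2816 of 19149 tested probe sets. Gnptg, a subunit of the enzyme that adds the mannose 6-phosphate tag, had a log2 change of -0.32 (adjusted p = 0.11), Gga3, an adaptor that carries tagged enzymes from the Golgi, of -0.21 (adjusted p = 0.27) and Psap, the precursor of the saposins, of 0.21 (adjusted p = 0.27). The factors Tfeb, Tfe3 and Mitf, named after their values were seen, had log2 changes of -0.16, -0.06 and 0.13, none passing. Sort1, also named after its value was seen, had the largest change of the list, -0.65 (limma, adjusted p = 0.31), and its groups overlapped.

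Partners of the cathepsins in class II antigen processing showed no call. Of 11 listed, 9 were tested, with log2 changes from -0.31 to -0.001 and a median of -0.14. All 9 were negative, as were 58.7% of all tested named genes, but with median centring Cd74 and Ifi30 turned positive, and 7 of the 9 and 4757 of 9897 named genes were negative. By limma 0 passed, and 2 were lower at an unadjusted p of 0.05 (11.8% of all tested named genes were). By the methods' analysis of variance 2 differed at that p, beside 2816 of 19149 tested probe sets. H2-Ob, a chain of the peptide-editing inhibitor H2-O, had a log2 change of -0.31 (adjusted p = 0.18), Ciita, the activator of class II genes, of -0.20 (adjusted p = 0.23) and H2-Oa, another chain of H2-O, of -0.26 (adjusted p = 0.43). Cd74, the invariant chain that Ctss and Ctsl trim, had mean values of 13.64 (WT) and 13.62 (Runx3-/-) and was named after these were seen.

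Endosomal receptors, several of which are trimmed by lysosomal proteases before they signal, gave 1 call, a rise, among 6 tested genes, where 1.36% of all tested named genes rose and 0.907% fell. Tlr8, a receptor for RNA fragments, was at 8.79, 9.45 and 8.74 in WT and at 10.55, 10.17 and 10.24 in Runx3-/- arrays. It rose 2.51-fold, or by 1.33 on the log2 scale (SE 0.21, limma, adjusted p = 0.047), a call kept in 4 of 13 alternatives and lost in the fit blocked by litter (adjusted p = 0.13). Tlr7 had a log2 change of 0.31 (adjusted p = 0.28), Unc93b1, which carries these receptors to endosomes, of -0.15 (adjusted p = 0.40) and Tlr3 of 0.09 (adjusted p = 0.74). The list's median was 0.06.

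**Figure D4:**
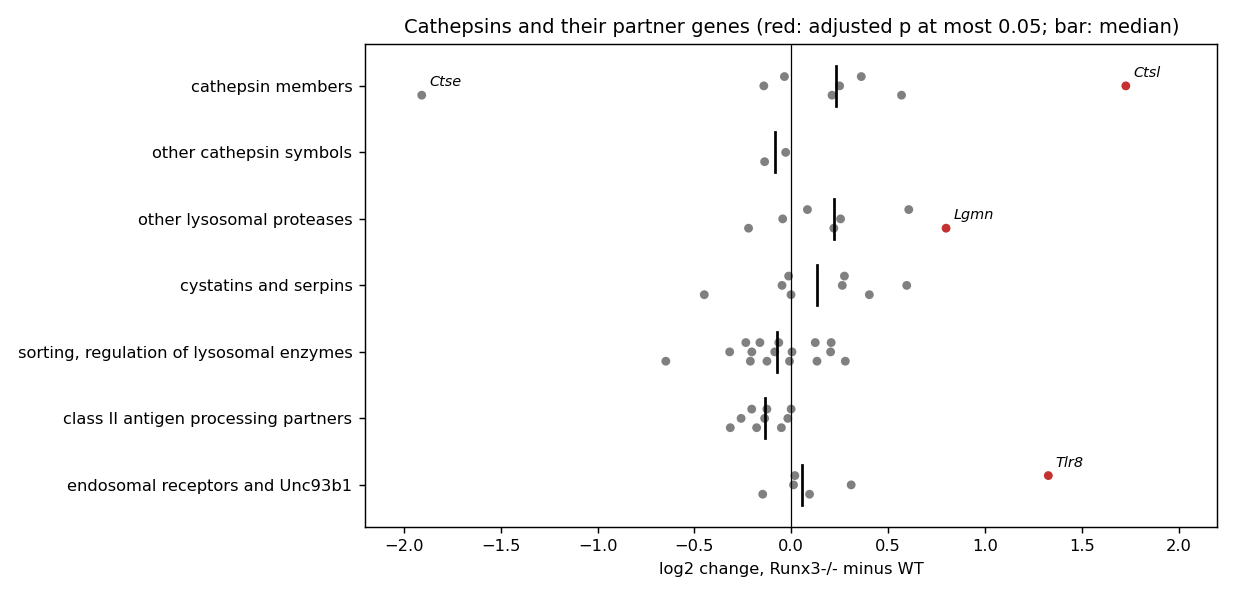
Log2 change of Runx3-/- minus WT (horizontal axis) for each tested gene of the cathepsin family and of 6 lists of related genes (vertical axis), in red where adjusted p was at most 0.05 and in grey otherwise, with the median of each list as a black bar. Ctsl (1.73), Lgmn (0.80) and Tlr8 (1.33) are the 3 red points, and the list medians lie between -0.14 and 0.23.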

How the data were processed

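RNA of sorted splenic CD4+ DC from 3 WT and 3 Runx3-/- mice was hybridised to 1 Affymetrix array each. The authors processed the scanner output in Partek Genomics Suite, using robust multichip averaging (RMA) and a GC correction. The deposited values are log2 intensities per probe set. The submitters' processing notes name mm9. Software versions were not given in the sources used. RMA sets all arrays to a common distribution, which hides a change common to most genes, and fold changes near background are understated. Precision is limited by the number of arrays.

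Of 35399 probe sets, 21789 had 1 gene symbol in the platform annotation, 1621 several and 11989 none, and the RefSeq table (GRCm38.p6) changed 0 of the 21698 symbols matched by Entrez number. The 19149 probe sets at 6.5 or more in at least 1 array entered a two-sided limma 3.58.1 fit (R 4.3.3) with genotype as the only term and moderated variances. This stands in for the one-way analysis of variance of the study's methods, which was run as an alternative. Benjamini-Hochberg adjustment ran over all these probe sets, with a threshold of 0.05. A gene with more than 1 probe set was represented by its brightest on average, which gave 9922 named genes. Intervals are 95% limma intervals for a single gene, unadjusted. The limma step was tested on simulated data.

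Genes named were the 10 cathepsins, Runx3, the called members or up to 3 members with the smallest p of 6 lists of related genes, and the 5 genes nearest to each called cathepsin. Genes outside this rule are marked as such. The members and lists were chosen with earlier results of these data known. The litter number in the labels pairs the mice. Deviations of littermates from their genotype means correlated at 0.16, 0.10 and 0.25 across probe sets for litters 1, 2 and 3. For mice of different litters and genotypes the correlations ran from -0.23 to 0.10, the highest as large as that of litter 2. The litter was used as a replicate block in an alternative. Sequences were searched in Python 3.11.15.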

Additional observations from a re-analysis of the deposited data

How the results depend on the processing

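Of 112 values of the 8 tested cathepsins under 14 alternatives, 102 kept their side of the adjusted threshold. Ctsl, the 1 member called in the main fit, kept its side in 7 of the 14. Each other member kept its side in 13 or 14 of them, which for these means staying uncalled. The sign changed for Ctsh alone, with median centring, where its log2 change was 0.005. Ctsb, Ctsd, Ctsl and Ctss had an unadjusted p of at most 0.05, higher in Runx3-/- DC, in each of the 13 alternatives fitted over probe sets. With litter as replicate block, the log2 change of Runx3 was -1.98 (adjusted p = 0.061), and 0 probe sets (3430 at an unadjusted p of 0.05), 0 cathepsins (4 unadjusted), 0 other lysosomal proteases (3 unadjusted) and 0 endosomal receptors (2 unadjusted) passed. When 1 array at a time was left out, the log2 change of Runx3 ranged from -2.03 to -1.96, the called probe sets from 0 (without WT 1) to 205 (without Runx3-/- 2), the called cathepsins from 0 to 1, the other lysosomal proteases from 0 to 0 and the endosomal receptors from 0 to 1. The called cathepsin was Ctse (lower) without WT 3 and Ctsl without Runx3-/- 2. The methods set no adjusted threshold. At theirs, a fold of 1.5 and an unadjusted p of 0.05, the analysis of variance marked 261 named genes as higher and 141 as lower (limma 303 and 161), and Ctsl alone of the cathepsins in both. After Benjamini-Hochberg adjustment, which was added here, it called 6 of 19149 probe sets (2816 at an unadjusted p of 0.05), where limma called 298. The analysis of variance called 0 cathepsins (4 unadjusted), 0 other lysosomal proteases (4 unadjusted) and 0 endosomal receptors (1 unadjusted). Tlr8, the called endosomal receptor, was lost with quantile normalization and with no filter on low values, which left 0 calls in that list. With the mean of all probe sets of a symbol, fitted over 9863 named genes alone, 3 cathepsins were called (Ctsl, Ctsd and Ctsb) among 595 genes in all, 6.03%. Each cathepsin has 1 probe set, so its values were the same there, and the cause of the lower p-values was not tested. Signals near the background of 6.5 limit what can be said of Ctsk, Ctsf and the low Ctse values.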
